A study of Homo sapiens with 12 samples.

Results

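PLA2G2A and 7 related phospholipase A2 genes were followed across the 12 arrays of a study of Notch1 forms in MCF-10A cells, an immortalised human mammary epithelial line that does not form tumours. The members were all probe sets whose only gene symbol in the platform annotation was PLA2G2A, PLA2G1B, PLA2G2D, PLA2G3, PLA2G4A, PLA2G5, PLA2G10 or PLA2G12A. A probe set is a group of short array probes read together as 1 value. The rule gave 12 probe sets of the 54675 on the array, for 7 of the 8 genes. PLA2G5 had 3 of them, PLA2G12A had 4, and the other 5 genes had 1 each. The single probe set of PLA2G10 is annotated to a second gene as well, so no value is given for it. PLA2G2A was chosen by its measured differences from vector, having risen with every Notch1 form, so those values are a description without a test.

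All cells were infected with retrovirus and collected 48 h later, with 3 biological replicates in each of 4 groups. The groups carried NICD (the free intracellular domain of Notch1), Notch1 L1601P+∆P, wild-type full-length Notch1, or vector alone. As background, L1601P is a substitution in the domain where the receptor's subunits pair, and ∆P stands for loss of the C-terminal PEST region, which limits the lifetime of the intracellular domain. Sample descriptions of the NICD group add gfp to its name without saying what it stands for. The values are log2 signals, so a difference of 1 is a doubling. Nothing says how separately the replicates were cultured, so a p-value here covers only the spread among these arrays, and 3 arrays per group limit the precision.

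Phospholipases A2 cut a fatty acid from the middle position of a phospholipid, which leaves a free fatty acid, often arachidonic acid, and a lysophospholipid. The secreted enzymes are small, disulphide-rich and calcium-dependent, and act outside the cell on membranes, lipoproteins and bacteria. PLA2G2A, the group IIA enzyme, is known as an acute-phase and bactericidal protein of inflamed tissue and of Paneth cells in the gut. PLA2G5 is a close relative that acts well on phosphatidylcholine, while PLA2G4A is the cytosolic enzyme that releases arachidonic acid inside the cell.

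PLA2G2A and PLA2G5 are neighbours on human chromosome 1 in the cluster of group II phospholipase genes. In the RefSeq annotation of GRCh38.p14, PLA2G2A spans chr1:19975431-19980434 on the minus strand and PLA2G5 spans chr1:20028408-20091911 on the plus strand. PLA2G2D lies in the same cluster at chr1:20111939-20119536, and PLA2G4A is far away on the same chromosome at chr1:186828949-186988981. The other members lie elsewhere, PLA2G1B at chr12:120322115-120327779, PLA2G3 at chr22:31134807-31140508 and PLA2G12A at chr4:109709989-109730070. The promoters of the pair that rose most are shown because NICD acts on genes through RBPJ (CSL), a DNA-binding protein whose core motif is TGGGAA. Each sequence is the 250 bases before a RefSeq transcription start, 5′ to 3′ on the strand of the gene, with TGGGAA or its reverse complement TTCCCA in capitals.
PLA2G2A, chr1:19979660-19979909, minus strand: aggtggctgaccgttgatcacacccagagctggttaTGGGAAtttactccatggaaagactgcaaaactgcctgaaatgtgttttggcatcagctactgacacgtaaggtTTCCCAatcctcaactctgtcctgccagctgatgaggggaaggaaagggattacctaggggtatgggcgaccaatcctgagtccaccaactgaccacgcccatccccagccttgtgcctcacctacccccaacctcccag
PLA2G5, chr1:20069944-20070193, plus strand: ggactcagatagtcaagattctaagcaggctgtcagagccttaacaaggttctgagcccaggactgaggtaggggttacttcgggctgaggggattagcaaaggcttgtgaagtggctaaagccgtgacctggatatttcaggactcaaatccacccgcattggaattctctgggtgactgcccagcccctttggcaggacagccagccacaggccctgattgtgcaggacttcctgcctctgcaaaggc

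The PLA2G2A window held the motif at 2 places, 214 to 209 bases before the start on the printed strand and 140 to 135 bases before it on the other strand. Of 35116 RefSeq windows of the same length, 20.8% held the 6 letters at least once on either strand and 2.9% held them at least 2 times. The longer form GTGGGAA was not in this window, against 5.43% of all windows. PLA2G2A has 3 annotated starts in the table used, and the window shown is the one with the most matches. The shares above are for single windows not picked by their matches, so they do not measure how rare such a window is. The window of a second start overlaps the one shown and holds 1 match, and the window of the third holds none. The single PLA2G5 window held no match. That window lies inside the gene span given above, and the bases before the first position of the span were not examined. The PLA2G2A window shown and that of the second start also lie inside the span of their gene. Only the window of the third start, chr1:19980435-19980684, lies before the gene, and it is the one without a match. Among the members, 5 genes had windows, 7 in all, and the 2 windows with a match both belonged to PLA2G2A. A match is only a run of letters, and no binding data were used here.

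The arrays were alike in their overall distribution, with array medians between 5.64 and 5.7 on the log2 scale. NOTCH1 had 2 probe sets. One of them, 223508_at, averaged 8.79 ± 0.04 with NICD, 8.74 ± 0.02 with Notch1 L1601P+∆P, 9.16 ± 0.04 with full-length Notch1 and 6.54 ± 0.20 with vector (SD, n = 3 each). The other, 218902_at, differed from vector by 0.28 with NICD (limma, adjusted p = 0.00881), by 0.06 with Notch1 L1601P+∆P (0.695) and by 0.08 with full-length Notch1 (0.999), so only 223508_at told all 3 constructs from vector. Of 6 epithelial markers measured, KRT5, KRT14 and CDH1 averaged between 11.93 and 13.91 with NICD, Notch1 L1601P+∆P and vector. With NICD 2 of the 6 rose over vector, KRT5 by 0.58 and KRT14 by 0.57 log2 units, and 3 fell, ITGB4 (-1.97), LAMB3 (-1.44) and EGFR (-0.72), with limma adjusted p of at most 6.23e-05. With Notch1 L1601P+∆P KRT5 (0.35) and KRT14 (0.58) rose and LAMB3 (-0.38) and ITGB4 (-0.61) fell, and ITGB4 was called on 3 of its 5 probe sets in both comparisons. EGFR was called on 5 of its 9 with NICD. The 6 levels summed to 68.16 to 68.79 on the NICD arrays, 71.08 to 71.43 with Notch1 L1601P+∆P, 71.67 to 71.85 with full-length Notch1 and 71.13 to 71.62 with vector. Of 12 measured markers of fibroblasts, endothelium and blood cells, each read on its probe set with the highest mean, 3 were higher with NICD than with vector. They were CD14 by 2.59, KDR by 1.05 and DCN by 0.36, and none was lower. On other probe sets of the markers, COL1A1 was called with NICD on 2 of its 5 (all 5 from 0.05 to 1.19) and PECAM1 on 2 of its 5 (-0.46 to 0.12). With Notch1 L1601P+∆P 1 of the 12 was called, CD14, higher by 0.86. COL1A1 was called there on 1 of its 5 probe sets (-0.01 to 0.76). The levels of the 12 markers summed to 74.5 to 75.2 with NICD, 71.95 to 72.18 with Notch1 L1601P+∆P, 69.49 to 71.11 with full-length Notch1 and 70.45 to 70.83 with vector. PTPRC, which all white blood cells carry, was at 3.63 in both NICD and vector cells. The part of these shifts in the results below was not tested, and in bulk samples more RNA per cell and more cells of a type cannot be told apart.

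PLA2G2A was high with all 3 Notch1 forms and had the largest difference from vector of the member probe sets in each. With NICD its log2 signal was 14.49, 14.46 and 14.48. With Notch1 L1601P+∆P it was 13.30, 13.56 and 13.55. With full-length Notch1 it was 10.09, 10.08 and 10.08, against 6.72, 6.94 and 6.84 with vector. The 4 groups did not overlap anywhere, and each lay clear of the next in the order NICD, Notch1 L1601P+∆P, full-length Notch1, vector. The replicates stood close together, with an SD of 0.02 for NICD, 0.15 for Notch1 L1601P+∆P, 0.01 for full-length Notch1 and 0.11 for vector.

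**Figure D1:**
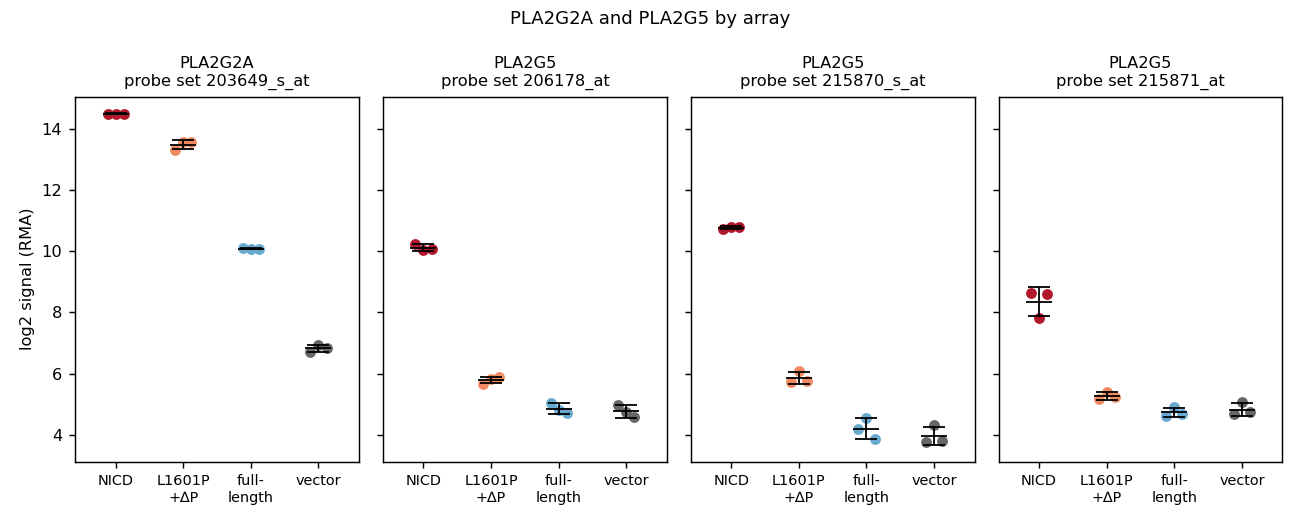
Log2 signal (RMA) of the PLA2G2A probe set and the 3 PLA2G5 probe sets on each array, with 3 points per group, a black bar at the group mean and whiskers of 1 SD. PLA2G2A steps down from NICD (mean 14.48) through Notch1 L1601P+∆P (13.47) and full-length Notch1 (10.08) to vector (6.83), while PLA2G5 is high with NICD and near vector with full-length Notch1.

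Over vector, PLA2G2A was higher by 7.65 log2 units with NICD, a 201-fold difference. The difference was 6.64 (99.5-fold) with Notch1 L1601P+∆P and 3.25 (9.52-fold) with full-length Notch1. Among the 54613 probe sets compared, it ranked second from the top with NICD and first with each of the other forms. These values are what the gene was chosen for and carry no test. The highest signal on any array was 15.01, so the NICD level of PLA2G2A lay near the top of the measured range. Whether that shortened its distance from the next form was not tested.

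The Notch1 forms themselves differed in their PLA2G2A level. The gene was chosen by its differences from vector and not by those between forms. Both use the same Notch1 arrays, so the p-values and the rank below are not independent of the choice. NICD stood above Notch1 L1601P+∆P by 1.01 ± 0.08 log2 units (SE), 2.02-fold, with a 95% interval of 0.84 to 1.18 (limma, adjusted p = 1.61e-06). NICD stood above full-length Notch1 by 4.40 ± 0.08, 21.1-fold (adjusted p = 1.42e-12). Notch1 L1601P+∆P stood above full-length Notch1 by 3.38 ± 0.08, 10.4-fold (adjusted p = 4.2e-10), the second largest positive difference of all probe sets in that comparison. On the log2 scale the PLA2G2A difference from vector with Notch1 L1601P+∆P was thus 86.8% of that with NICD, and with full-length Notch1 it was 42.5%.

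PLA2G5, whose span begins 53 kb from that of PLA2G2A by lower coordinate, rose on all 3 of its probe sets with NICD. It rose on 2 of them with Notch1 L1601P+∆P. Probe set 206178_at read 10.23, 10.04 and 10.06 with NICD, 5.68, 5.83 and 5.88 with Notch1 L1601P+∆P, 5.04, 4.82 and 4.71 with full-length Notch1 and 4.98, 4.76 and 4.58 with vector. Probe set 215870_s_at read 10.71, 10.79 and 10.80 with NICD, 5.73, 6.09 and 5.76 with Notch1 L1601P+∆P, 4.20, 4.57 and 3.86 with full-length Notch1 and 3.78, 4.32 and 3.82 with vector. Probe set 215871_at read 8.64, 7.81 and 8.59 with NICD, 5.18, 5.42 and 5.24 with Notch1 L1601P+∆P, 4.63, 4.90 and 4.70 with full-length Notch1 and 4.67, 5.08 and 4.76 with vector. On all 3, the NICD arrays were the highest, the Notch1 L1601P+∆P arrays came next without overlap, and the full-length Notch1 and vector arrays overlapped.

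PLA2G5 rose with NICD over vector by 5.34 ± 0.11, 6.79 ± 0.17 and 3.51 ± 0.19 log2 units on the 3 probe sets in the same order (limma, adjusted p = 3.83e-12, 2.23e-11 and 2.32e-08). These are 40.4-fold, 111-fold and 11.4-fold differences in signal, taken against vector means of 4.77, 3.97 and 4.83 that lie below the array medians and carry no detection call, so the folds and the shares of the NICD change below depend on a dim baseline. The 206178_at signal rose with Notch1 L1601P+∆P by 1.03 ± 0.11 (adjusted p = 0.000208) and the 215870_s_at signal by 1.89 ± 0.17 (adjusted p = 6e-05). The third, 215871_at, differed by 0.45 ± 0.19, which did not pass (adjusted p = 0.259). Between full-length Notch1 and vector PLA2G5 differed by 0.09, 0.24 and -0.09, with adjusted p of 0.999, 0.991 and 0.999. Their 95% intervals ran from -0.15 to 0.32, from -0.14 to 0.62 and from -0.49 to 0.31.

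PLA2G5 also separated NICD from the mutant receptor. NICD exceeded Notch1 L1601P+∆P by 4.31, 4.91 and 3.07 log2 units on the PLA2G5 probe sets (adjusted p = 6.11e-11, 1.26e-09 and 1.81e-07), where PLA2G2A differed by 1.01; the contrast between the genes was not tested. The PLA2G5 difference from vector with Notch1 L1601P+∆P was 19.2%, 27.8% and 12.7% of that with NICD. Each probe set is read only against itself, since array signals do not rank the amounts of different transcripts.

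PLA2G4A, the cytosolic enzyme, moved the other way with NICD. Its log2 signal was 8.46, 8.53 and 8.39 with NICD, 8.76, 8.68 and 8.95 with Notch1 L1601P+∆P, 8.83, 8.89 and 8.96 with full-length Notch1 and 8.94, 8.92 and 8.96 with vector. The NICD arrays lay below those of every other group. PLA2G4A fell by 0.48 ± 0.07 against vector (limma, adjusted p = 0.000439), by 0.43 against full-length Notch1 (0.00108) and by 0.33 against Notch1 L1601P+∆P (0.00933), where the p-values in brackets are adjusted. The differences from vector were -0.15 with Notch1 L1601P+∆P and -0.05 with full-length Notch1 (adjusted p = 0.352 and 0.999).

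PLA2G3, a larger secreted enzyme related to bee venom phospholipase, was higher with NICD by a small margin. It read 6.01, 6.63 and 6.11 with NICD, 5.91, 5.88 and 5.87 with Notch1 L1601P+∆P, 5.63, 5.78 and 6.06 with full-length Notch1 and 5.79, 5.83 and 5.40 with vector. The NICD arrays lay above the vector arrays but overlapped with full-length Notch1. The difference from vector was 0.58 ± 0.16 (limma, adjusted p = 0.0219). It was 0.39 without NICD replicate 2 and 0.44 without vector replicate 3, and the call was lost in both cases (adjusted p = 0.0766 and 0.1) and with only the 6 arrays compared (0.0609).

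PLA2G12A, an unusual secreted enzyme expressed in many tissues, gave small falls that its 4 probe sets did not share evenly. Probe set 223373_s_at read 9.64, 9.75 and 9.61 with NICD, 9.91, 9.90 and 9.90 with Notch1 L1601P+∆P, 9.96, 9.99 and 9.98 with full-length Notch1 and 9.98, 9.94 and 9.91 with vector. The NICD arrays were below all others, and the group means were 9.67 ± 0.08 with NICD, 9.90 ± 0.01 with Notch1 L1601P+∆P, 9.98 ± 0.01 with full-length Notch1 and 9.94 ± 0.04 with vector. This probe set fell by 0.28 against vector (adjusted p = 0.00353), by 0.31 against full-length Notch1 (0.00168) and by 0.24 against Notch1 L1601P+∆P (0.0138, lost with only the 6 arrays compared or without NICD replicate 1, NICD replicate 3 or Notch1 L1601P+∆P replicate 1). Probe set 228084_at fell by 0.20 against vector (adjusted p = 0.035), a call lost under 8 of 17 alternatives, and by 0.30 against full-length Notch1 (0.00365). Cyclic loess scaling moved its difference from vector to -0.11 (adjusted p = 0.262). For 221027_s_at the difference was -0.19 from vector (0.212) and -0.36 from full-length Notch1 (0.0208), the second not called under cyclic loess or without replicate 3 of either group. For 242323_at it was -0.08 from vector (0.579) and 0 from full-length Notch1 (0.985).

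The pancreatic-type enzyme PLA2G1B and the group IID enzyme PLA2G2D were not called against vector with any Notch1 form. PLA2G1B read 3.35, 3.44 and 3.77 with NICD, 3.39, 3.38 and 3.42 with Notch1 L1601P+∆P, 3.50, 3.50 and 3.34 with full-length Notch1 and 3.15, 3.41 and 2.98 with vector, near the lowest signal on the arrays (2.27). The NICD and vector arrays overlapped, and their difference of 0.34 ± 0.12 did not pass (adjusted p = 0.0632). It passed with 1 probe set per gene (0.0456), with the intensity trend (0.0377), without NICD replicate 1 (0.0402) and without vector replicate 2 (0.0166). PLA2G1B gave differences from vector of 0.22 with Notch1 L1601P+∆P and 0.26 with full-length Notch1, neither called. PLA2G2D read 5.59, 5.50 and 5.43 with NICD, 5.81, 5.90 and 5.76 with Notch1 L1601P+∆P, 5.96, 5.67 and 5.62 with full-length Notch1 and 5.69, 5.70 and 5.63 with vector. The NICD arrays lay below those of every other group. The difference of -0.17 between NICD and vector was not called (adjusted p = 0.226). NICD lay below Notch1 L1601P+∆P by 0.32 (adjusted p = 0.0293), a call lost without NICD replicate 2 or 3 or without Notch1 L1601P+∆P replicate 1 or 2 (adjusted p up to 0.108).

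**Figure D2:**
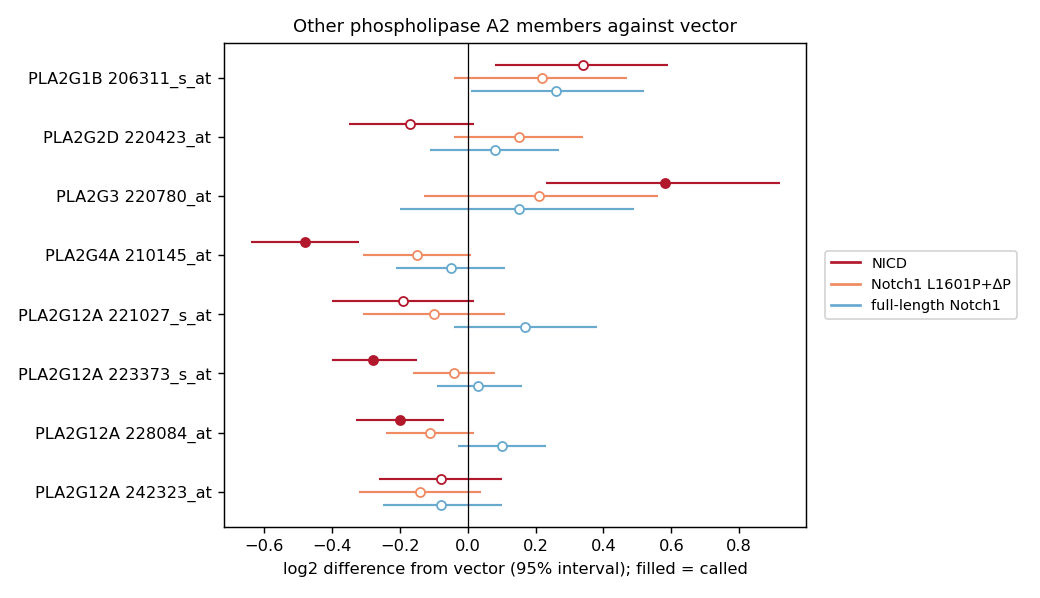
Log2 difference from vector of the members other than PLA2G2A and PLA2G5, by probe set, with NICD above Notch1 L1601P+∆P and full-length Notch1; bars are 95% intervals and filled points passed an adjusted p of 0.05. All filled points are NICD, with PLA2G3 at 0.58, PLA2G4A at -0.48 and 2 PLA2G12A probe sets at -0.28 and -0.20.

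Over the 11 member probe sets other than PLA2G2A, 7 were called between NICD and vector, 4 higher and 3 lower, from 4 genes. That share of 63.6% compares with 19.3% of all probe sets called in this comparison (6.75% higher and 12.6% lower). PLA2G5 and PLA2G12A each gave more than 1 of the 7 calls, so these are not separate members. With 1 probe set per gene, 24.2% of all genes were called. The members were chosen with earlier results of these data known, so the shares are a description. The median difference of the 11 was -0.08, and the 3 largest were all PLA2G5. For Notch1 L1601P+∆P against vector 2 of the 11 were called, both higher and both PLA2G5, where 2.39% of all probe sets were called (1.1% higher and 1.29% lower). With full-length Notch1 none of the 11 was called by limma. PLA2G1B alone had an unadjusted limma p under 0.05, and the share of all probe sets at that threshold was not counted. In that comparison 0.011% of all probe sets were called. Between the Notch1 forms, 6 of the 11 were called for NICD against Notch1 L1601P+∆P (3 higher, 3 lower), where 13% of all probe sets were (6.04% higher and 7.01% lower). For NICD against full-length Notch1 7 were called (3 higher, 4 lower), next to 18.2% of all (7.14% higher and 11.1% lower). For Notch1 L1601P+∆P against full-length Notch1 2 were called, both higher, next to 1.63% of all (0.925% higher and 0.709% lower).

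The genes around PLA2G2A other than PLA2G5 differed little from vector. Distances here run between the lower coordinates of the gene spans. For PLA2G2A, on the minus strand, that is the end of the gene and not its start. Within 500 kb by that measure RefSeq lists 33 genes, of which 11 that are not members had 17 probe sets of their own. Between NICD and vector these 17 differed by -0.28 to 0.42 with a median of 0.01, and 2 were called, next to 19.3% of all probe sets. OTUD3, a deubiquitinase gene, rose by 0.42 ± 0.11 (limma, adjusted p = 0.0145), a call lost without NICD replicate 3 or vector replicate 2. MICOS10, which encodes a subunit of a mitochondrial inner membrane complex, fell by 0.28 ± 0.06 on 1 of its 2 probe sets (adjusted p = 0.00565). PLA2G2E, at 55.4 kb from PLA2G2A on the side away from PLA2G5, differed by 0.07 with NICD (adjusted p = 0.467). PLA2G2F, at 163.9 kb, differed by -0.13 (adjusted p = 0.522). The 17 ranged with Notch1 L1601P+∆P from -0.25 to 0.18 and with full-length Notch1 from -0.19 to 0.10, with none called by limma in either.

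**Figure D3:**
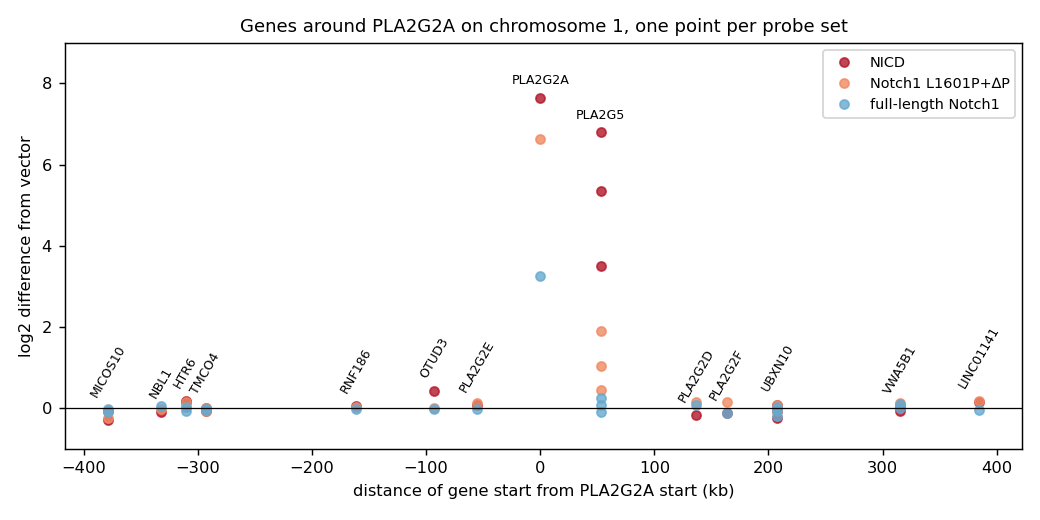
Log2 difference from vector of each probe set within 500 kb of PLA2G2A, for NICD, Notch1 L1601P+∆P and full-length Notch1. Distance (kb) is between the lower coordinates of the gene spans, which the axis labels as gene starts. PLA2G2A and PLA2G5 stand apart at up to 7.65 and 6.79, and the 17 probe sets of non-member genes lie between -0.28 and 0.42.

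The graded pattern of PLA2G2A was set beside other genes with a large NICD response. The 220 probe sets with 1 symbol and a NICD difference from vector of at least 2 log2 units belong to 153 genes. Each was scaled so that its vector mean was 0 and its NICD mean was 1. Likeness was the root mean square distance from the scaled PLA2G2A values over the 12 arrays. Each non-member gene is counted by its probe set nearest to PLA2G2A, which favours likeness in the distances and in the medians. The median gene among the 151 non-members reached 0.24 of its NICD change with Notch1 L1601P+∆P and 0.03 with full-length Notch1, where PLA2G2A reached 0.87 and 0.43. The 6 nearest were OLFM4, CCN1, IGFL1, SERPINA3, PI3 and RHOV, at distances of 0.14, 0.14, 0.17, 0.17, 0.18 and 0.22. All share the same vector arrays and were picked for a large NICD change, and PLA2G2A was picked for its rise with every form, so the distances and shares are a description. With NICD, SERPINA3 (14.45) and PI3 (14.63) averaged near the top of the measured range, as PLA2G2A did. OLFM4 had a dim vector mean of 3.62. The effect of these limits on the shares was not tested.

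OLFM4, which encodes the secreted glycoprotein olfactomedin 4, averaged 13.43 with NICD, 10.18 with Notch1 L1601P+∆P, 5.86 with full-length Notch1 and 3.62 with vector. It reached 0.67 and 0.23 of its NICD change with the mutant and the full-length receptor. CCN1, a matrix-associated signalling protein, reached 0.74 and 0.18. SERPINA3, a secreted protease inhibitor, reached 0.68 and 0.15. PI3, which encodes the elastase inhibitor elafin, reached 0.72 and 0.09. The PLA2G5 probe sets were less alike, at distances of 0.35, 0.40 and 0.44.

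**Figure D4:**
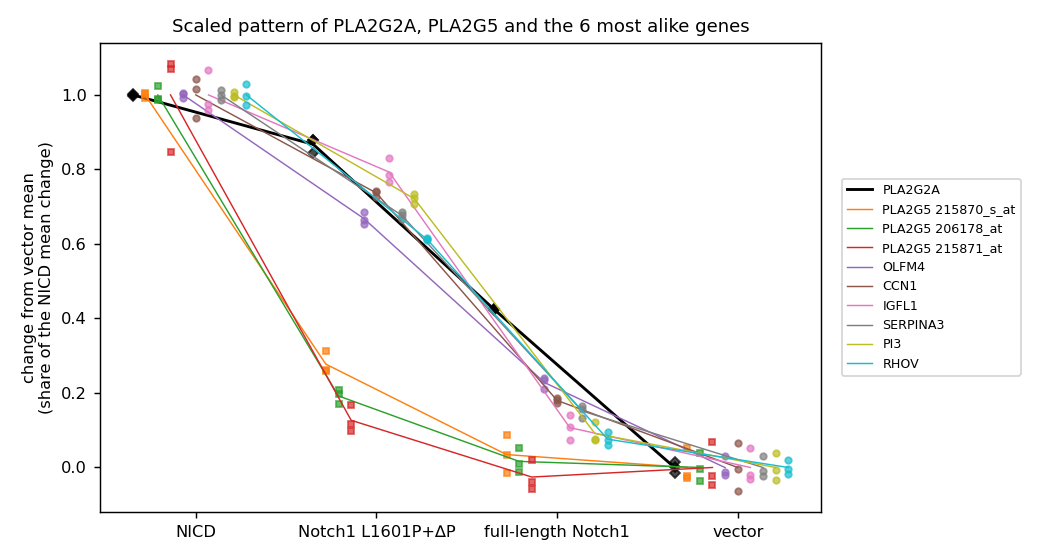
Change from the vector mean as a share of the NICD mean change (no unit), by group, with 3 points per probe set and group and lines through the means. PLA2G2A (black diamonds) reaches 0.87 with Notch1 L1601P+∆P and 0.43 with full-length Notch1, OLFM4 reaches 0.67 and 0.23, and the PLA2G5 probe sets reach up to 0.28 and 0.03.

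The wider pathway was read from 6 gene lists, taking for each gene its probe set with the highest mean. In that set 24.2% of 19775 genes were called between NICD and vector (8.46% higher and 15.8% lower), with a median difference of -0.02. Between Notch1 L1601P+∆P and vector 3.4% were called (1.64% higher and 1.75% lower), with a median of -0.01. No gene of the 6 lists was called between full-length Notch1 and vector, where 0.0202% of all genes were. The lists held 24, 10, 23, 20, 19 and 15 measured genes, of which 7 in all had an unadjusted limma p under 0.05. The share of all genes at that threshold was not counted, so this and the like count below are no result about the lists.

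Of 24 other enzymes of the phospholipase A2 family, 1 rose and 8 fell with NICD, with a median of -0.11. The call of the rise was lost under 3 of 18 alternatives. Falls of genes not named here were lost under 6, 7 and 12 of them, in each case including cyclic loess. PLAAT3, an acyltransferase and phospholipase of adipose tissue, averaged 6.53 ± 0.12 with NICD and 7.79 ± 0.06 with vector and fell by 1.26 (adjusted p = 2.38e-07), on 1 of its 2 probe sets. PNPLA3, a lipid droplet lipase, averaged 6.49 ± 0.07 with NICD and 7.44 ± 0.10 with vector and fell by 0.95 (adjusted p = 1.07e-06). None of the 24 was called with Notch1 L1601P+∆P, 5 had an unadjusted limma p under 0.05, and the median was 0.01.

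Proteins that bind or inhibit secreted phospholipases included 1 large rise. SCGB1A1, the uteroglobin gene whose product inhibits phospholipase A2, averaged 10.20 ± 0.13 with NICD, 8.60 ± 0.20 with Notch1 L1601P+∆P and 7.16 ± 0.02 with vector. It rose by 3.04 ± 0.11 with NICD (adjusted p = 4.15e-10) and by 1.44 ± 0.11 with Notch1 L1601P+∆P (adjusted p = 6.76e-06). Of the 10 genes of this list, NICD raised SCGB1A1, ITGAV (0.68) and GPC1 (0.33) and lowered ITGB1 (-0.53), with a median of -0.11. GPC1 was called on 1 of its 2 probe sets and not under every alternative, and ITGB1 on 4 of its 7. PLA2R1, the receptor for secreted phospholipases, differed by -0.13 on the probe set taken for the list (adjusted p = 0.433), while 1 of its 4 probe sets was called and the 4 ranged from -0.13 to 0.44. SCGB1A1 was the single gene called with Notch1 L1601P+∆P by the probe sets taken for the list, where the median was -0.01, although 2 of the 7 ITGB1 probe sets were also called.

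Of 23 enzymes that make or break down prostaglandins and leukotrienes, 1 rose and 7 fell with NICD, with a median of -0.17. PTGES, the inducible prostaglandin E synthase, averaged 11.29 ± 0.05 with NICD and 12.26 ± 0.03 with vector, and fell by 0.97 (adjusted p = 3.09e-08). HPGD, which inactivates prostaglandins, fell by 0.93 (adjusted p = 1.72e-05), so the genes that fell include both a synthase and a degrading enzyme. PTGS1, the constitutive cyclooxygenase, fell by 0.81 (adjusted p = 1.58e-05). PTGS2, the inducible cyclooxygenase, differed by -0.24 and was not called (adjusted p = 0.16). TBXAS1, thromboxane synthase, was the gene that rose with NICD (0.35, adjusted p = 0.00533), on 1 of its 2 probe sets. It was also the single gene called with Notch1 L1601P+∆P (0.34, adjusted p = 0.0347, lost under 8 alternatives), and the median was 0.01.

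Of 20 receptors for eicosanoids and lysophospholipids, none rose and 4 fell with NICD, with a median of -0.02. PTGER4, a prostaglandin E receptor, averaged 5.19 ± 0.23 with NICD and 6.55 ± 0.10 with vector and fell by 1.36 (adjusted p = 2.82e-06), on 1 of its 2 probe sets. PTAFR, the receptor for platelet-activating factor, averaged 8.01 ± 0.12 with NICD and 9.08 ± 0.14 with vector and fell by 1.08 (adjusted p = 6.54e-07). LPAR6, a lysophosphatidic acid receptor, fell by 0.81 on 1 of its 2 probe sets (adjusted p = 1.67e-05). The single call of the 20 with Notch1 L1601P+∆P was PTGER4 at -0.62 (adjusted p = 0.016, lost under 4 alternatives), with a median of -0.02.

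Enzymes that act on lysophospholipids and remodel phospholipids held the largest rise of the 6 lists. ENPP2, which encodes autotaxin, the secreted enzyme that makes lysophosphatidic acid, averaged 9.33 ± 0.09 with NICD, 6.84 ± 0.20 with Notch1 L1601P+∆P and 4.77 ± 0.08 with vector. It rose by 4.56 ± 0.11 with NICD (adjusted p = 1.48e-11) and by 2.07 ± 0.11 with Notch1 L1601P+∆P (adjusted p = 4.08e-07), and its second probe set rose by 6.11 and 3.21. PLD1, a phospholipase D that makes phosphatidic acid, rose by 2.20 ± 0.09 with NICD (adjusted p = 1.37e-09), and all 7 of its probe sets were called, at 1.11 to 3.26. With Notch1 L1601P+∆P it rose by 1.05 ± 0.09 (adjusted p = 2.3e-05). PLPP2, a lipid phosphate phosphatase, fell by 0.82 with NICD (adjusted p = 3.86e-05). Of 19 measured genes, 3 rose and 6 fell with NICD (median -0.12), and 2 rose and 1 fell with Notch1 L1601P+∆P (median -0.07), the fall of PLPP2 being lost under 13 alternatives.

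Of 15 antimicrobial proteins of epithelia, a group to which PLA2G2A belongs by function, 6 rose and 1 fell with NICD, with a median of 0.09. PI3 averaged 14.63 ± 0.02 with NICD, 13.89 ± 0.03 with Notch1 L1601P+∆P and 11.99 ± 0.10 with vector. It rose by 2.64 ± 0.06 (adjusted p = 1.42e-11) with NICD and by 1.91 ± 0.06 (adjusted p = 4.47e-09) with the mutant receptor. S100A7, psoriasin, averaged 10.94 ± 0.15 with NICD and 8.15 ± 0.07 with vector and rose by 2.80 ± 0.18 (adjusted p = 1.37e-07). S100A7 differed by 0.59 with Notch1 L1601P+∆P and was not called (adjusted p = 0.123). S100A9, a subunit of calprotectin, rose by 1.15 with NICD (adjusted p = 1.23e-06). RNASE7, an antimicrobial ribonuclease of skin, fell by 1.13 ± 0.14 with NICD (adjusted p = 5.29e-05). In Notch1 L1601P+∆P cells 2 of the 15 rose and 1 fell, with a median of 0.14. The fall was RNASE7 at -0.70 (adjusted p = 0.0173), lost without Notch1 L1601P+∆P replicate 2 or 3 or vector replicate 2 or 3 (adjusted p up to 0.0694).

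**Figure D5:**
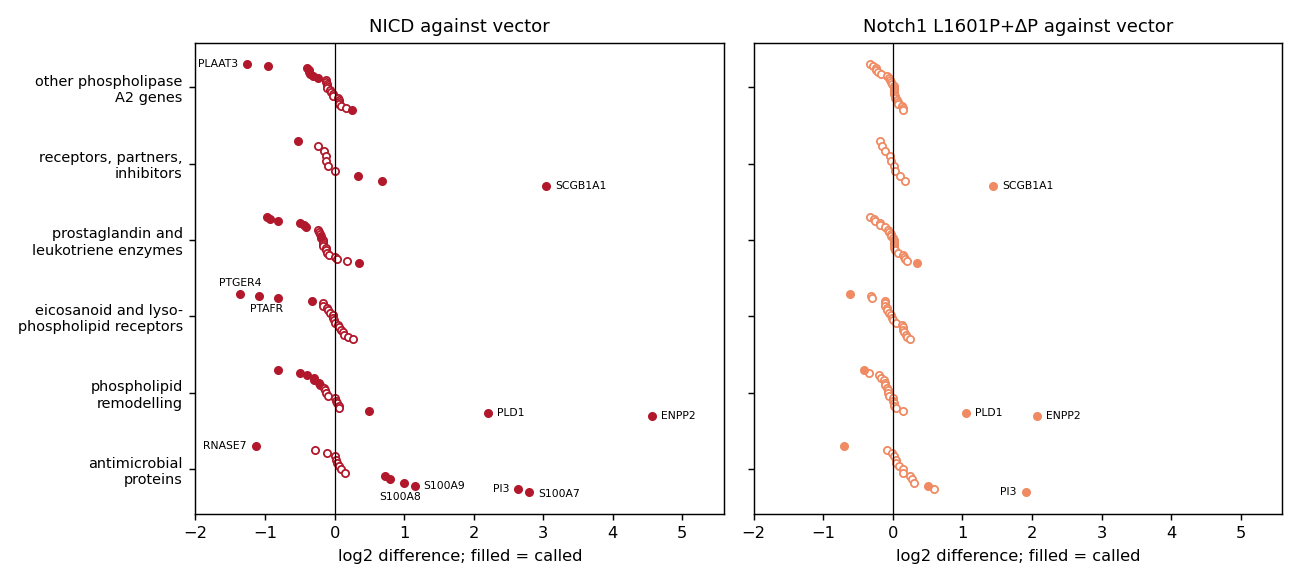
Log2 difference of each measured gene of the 6 lists, for NICD against vector (left) and Notch1 L1601P+∆P against vector (right), one point per gene and filled where the adjusted p was under 0.05; called genes with a difference of at least 1 in either direction are labelled. ENPP2 (4.56 and 2.07) and SCGB1A1 (3.04 and 1.44) lie farthest to the right in their lists in both panels, and most genes lie close to 0.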

How the data were processed

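Total RNA from 12 MCF-10A samples was measured on Affymetrix arrays. The authors' deposited values are log2 signals, and RMA (background correction, quantile normalization and summary per probe set) and limma were used, per the submitters' processing notes, which as used here name no version. Quantile normalization forces the arrays onto 1 distribution, which hides a change of most transcripts in 1 direction, and RMA compresses dim signals. The values carry no detection call. Probes of a set ending in _s_at can match several transcripts, and probe sequences were not analysed here. The only probe set of PLA2G2A, 203649_s_at, is such a set.

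From these values, 54613 probe sets other than the 62 Affymetrix controls were fitted in 1 model with 4 group means and all 12 arrays by limma 3.58.1 in R 4.3.3 (lmFit, contrasts, eBayes), which left 8 residual degrees of freedom plus 4.3 from moderation. Tests were two-sided, with Benjamini-Hochberg adjustment over all 54613, and a call was an adjusted p under 0.05. The fit was tested on simulated data. Means carry the SD over 3 arrays, and differences carry the standard error from limma. Symbols came from the platform annotation, which gave 41091 probe sets 1 symbol, 1801 several and 11721 none.

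All members were named with each probe set. Of each list up to 4 called genes per comparison could be named, by size of change, and not all are repeated; PLA2R1 and PTGS2 were named for their roles, outside that rule. Members and lists were chosen with earlier results of these data known. The 9 lists comprise the 6 described, 6 Notch activity genes and the 2 marker lists. Of the Notch activity genes, each on its probe set with the highest mean, 5 rose with NICD (NRARP by 4.43, HEY1 by 3.35). With Notch1 L1601P+∆P 4 rose (NRARP by 2.18, HEY1 by 0.72), and with full-length Notch1 none was called. NOTCH1 itself is 1 of the 6, and the probe set taken for it was not called with either receptor form. Its other probe set, 223508_at, rose by 2.20 with Notch1 L1601P+∆P and by 2.62 with full-length Notch1 (limma, adjusted p = 1.37e-08 and 1.23e-08). HES1 was not called against vector with any Notch1 form on any of its 3 probe sets. A few list genes were not analysed here. Promoters came from the RefSeq table for GRCh38.p14. Alternatives were 1 probe set per gene or a minimum mean of 5, each fitted and adjusted over the probe sets kept. Others were cyclic loess, an intensity trend with robust moderation, only the 6 arrays compared, the replicate number as block, and each array left out.

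Whether replicate numbers pair samples was checked by the correlation of deviations from group means: over 18 pairs of same-numbered arrays it ran from -0.20 to 0.24, with 2 over 0.1, so the numbers were not taken as a pairing.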

Additional observations from a re-analysis of the deposited data

How the results depend on the processing

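No result changed direction with a call under any alternative. The PLA2G2A difference stayed called in every alternative: without 1 array it ranged from 0.93 to 1.06 for NICD minus Notch1 L1601P+∆P, from 4.39 to 4.41 for NICD minus full-length Notch1 and from 3.34 to 3.47 for Notch1 L1601P+∆P minus full-length Notch1, with highest adjusted p over all alternatives of 0.000133, 8.66e-09 and 5.55e-06. All PLA2G5 calls also held throughout. With 1 probe set per gene, the members called were 1 for Notch1 L1601P+∆P against vector, 4 for NICD against full-length Notch1 and 1 for Notch1 L1601P+∆P against full-length Notch1, where each gene counts once by construction (2, 7 and 2 with all probe sets). Without 1 array, the members called ranged from 5 to 7 for NICD against vector, 2 to 2 for Notch1 L1601P+∆P against vector, 0 to 0 for full-length Notch1 against vector, 4 to 6 for NICD against Notch1 L1601P+∆P, 6 to 8 for NICD against full-length Notch1 and 2 to 3 for Notch1 L1601P+∆P against full-length Notch1.

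Of the genes of the 6 lists called with NICD against vector, 32 of 41 kept the call in every alternative, and with Notch1 L1601P+∆P 5 of 9 did. Without 1 array the second count ranged from 5 (without Notch1 L1601P+∆P replicate 2 or vector replicate 2) to 10, and the intensity trend gave 17 and, for full-length Notch1 against vector, 2 in place of 0. For Notch1 L1601P+∆P against full-length Notch1, 11 list genes were called, 7 with only the 6 arrays and 5 to 11 without 1 array. Neighbours of PLA2G2A called numbered 2, 2 and 3 for NICD against vector, Notch1 L1601P+∆P and full-length Notch1, and without 1 array 1 to 2, 0 to 2 and 1 to 3. The second count was 1 under cyclic loess and with only the 6 arrays, which also gave 1 for the third.

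With the replicate block, the PLA2G2A differences between forms were 1.01, 4.40 and 3.38, the members called with NICD against vector were 6, the lost one being PLA2G12A 228084_at, list genes called for Notch1 L1601P+∆P against full-length Notch1 were 7 and neighbours called for NICD against Notch1 L1601P+∆P were 1. Over all probe sets, full-length Notch1 against vector gave 6 calls, 29 with the trend and 10 with the minimum mean. Notch1 L1601P+∆P against vector gave 1307, 2318 with the trend, 820 with only 6 arrays and as few as 711 without Notch1 L1601P+∆P replicate 2. Notch1 L1601P+∆P against full-length Notch1 gave 892, 1732 with the trend, 1366 with the minimum mean, 521 with only 6 arrays and as few as 439 without Notch1 L1601P+∆P replicate 2. Cyclic loess moved the share of higher calls to 49.1% from 34.9% for NICD against vector, to 57.8% from 46.1% for Notch1 L1601P+∆P against vector, to 55.1% from 46.3% for NICD against Notch1 L1601P+∆P, to 51.2% from 39.2% for NICD against full-length Notch1 and to 67.1% from 56.6% for Notch1 L1601P+∆P against full-length Notch1. The intensity trend moved it to 34.6% for Notch1 L1601P+∆P against vector and to 39.4% for Notch1 L1601P+∆P against full-length Notch1. The causes were not tested. The limits are 3 arrays per group, 1 probe set for PLA2G2A, no detection calls and values already normalized to 1 distribution.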
